A study of Mus musculus with 16 samples.

Results

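The NK lectin receptors are C-type lectin-like proteins that natural killer (NK) cells, and many activated CD8+ T cells, carry on their surface. Their expression was described here for 9 genes, Klrd1, Klrk1, Klrc1, Klrc2, Klrg1, Klre1, Klrb1c, Klra3, and Klri2, which were chosen by name out of 32285 genes listed in the single-cell matrices. Cells positive for CD45, a surface protein of white blood cells, were sorted from kidney allografts and spleens for single-cell RNA sequencing in droplets, where a unique molecular identifier (UMI) marks each mRNA molecule counted. The 9 matrices of CD8 cells held 72639 cells in 32 sets of barcodes that share a library tag, here called libraries. NK cells were taken from the 2 matrices of all CD45+ cells used here as cells with a UMI of at least 2 of the 4 genes Ncr1, Klre1, Klrb1c, and Gzma and no UMI of Cd3d, Cd3e, or Cd3g. This rule found 290 of 11948 cells (2.43%) in rejecting kidney and 1309 of 47060 cells (2.78%) in naive spleen.

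Accepted grafts were DBA/2J kidneys in B6 (C57BL/6J) recipients, collected without immunosuppression at 1 week (3 libraries per tissue), 3 weeks (5 libraries), and 24 weeks (3 libraries), together with the recipient's spleen. Rejecting grafts were B6 kidneys in DBA/2J recipients at 1 week (2 kidney and 3 spleen libraries), and naive spleen came from B6 mice without a transplant (5 libraries). The sample labels give strain C57BL/6J and genotype WT for every sample, and the strain of the recipients was taken from the study's methods, which used male mice. Recipient cells of the accepted model were thus B6 and those of the rejecting model DBA/2J, and any difference between accepted and rejecting samples cannot be told apart from a difference between strains. The methods treat each mouse as a sample of its own, and the number of accepted libraries equals the number of replicates they name for those groups. Numbers of mice behind the rejecting and naive libraries are not given in the sources used here. Libraries were therefore taken as replicates, and p-values cover the spread between them.

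CD94, the product of Klrd1, reaches the cell surface as a partner of NKG2A (Klrc1), which carries an inhibitory motif, or of NKG2C (Klrc2), which signals through the adaptor DAP12 (Tyrobp), and both pairs recognize the nonclassical MHC molecule Qa-1 (H2-T23). NKG2D (Klrk1) recognizes stress-induced ligands such as RAE-1 and MULT1 and signals through the adaptors DAP10 (Hcst) and DAP12. KLRG1 binds cadherins and marks late effector cells, KLRE1 forms pairs with KLRI1 or KLRI2, Klrb1c encodes NK1.1, and Klra3 encodes Ly49C, an inhibitory receptor for MHC class I. The DBA/2J strain is known as CD94-deficient, and mouse strains differ in the number and sequence of their Ly49 (Klra) genes. The reads of both strains were mapped to the B6-derived mm10 assembly.

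All 9 genes lie on chromosome 6 of GRCm38, the assembly also named mm10. Klre1 (chr6:129577905-129585827, + strand), Klrd1 (chr6:129591782-129598775, +), Klrk1 (chr6:129610323-129623864, -), Klrc2 (chr6:129647496-129660689, -), Klrc1 (chr6:129666015-129678973, -), and Klri2 (chr6:129729041-129740484, -) sit within 162.6 kb of each other in the NK gene complex. Klrg1 (chr6:122270596-122282882, -), Klrb1c (chr6:128778485-128789215, -), and Klra3 (chr6:130323289-130337574, -) lie farther away on the same chromosome. RefSeq promoter sequences (GRCm38.p6, 250 bases before to 50 bases after a start) matched 6 of the 9 genes by symbol, with Klrd1, Klrg1, and Klri2 unmatched. A core of the motif bound by RUNX factors, which act in T and NK cells (TGTGGT or, on the other strand, ACCACA), was present in at least 1 listed promoter of Klrk1, Klrc1, Klrc2, Klre1, and Klrb1c and not in that of Klra3, while 16.76% of 32851 promoters of the same length held it. A T-box core (GGTGTG or CACACC, whose letters can overlap those of the RUNX core) was in none of these windows and in 19.05% of all promoters. The promoters of Klrc1 and Klrc2, the receptor pair that shares the partner CD94, and of Klrk1 are shown because these genes moved differently with time in accepted kidneys, with the RUNX cores in capitals and each read 5′ to 3′ on the gene's own strand, the minus strand.
Klrc1 promoter, chr6:129678924-129679223: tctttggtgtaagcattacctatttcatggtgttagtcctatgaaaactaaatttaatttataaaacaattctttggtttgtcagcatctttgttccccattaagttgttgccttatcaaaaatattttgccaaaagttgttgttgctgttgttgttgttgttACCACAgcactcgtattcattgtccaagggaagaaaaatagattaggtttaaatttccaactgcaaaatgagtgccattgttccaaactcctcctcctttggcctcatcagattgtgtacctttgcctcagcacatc
Klrc2 promoter, chr6:129660547-129660846: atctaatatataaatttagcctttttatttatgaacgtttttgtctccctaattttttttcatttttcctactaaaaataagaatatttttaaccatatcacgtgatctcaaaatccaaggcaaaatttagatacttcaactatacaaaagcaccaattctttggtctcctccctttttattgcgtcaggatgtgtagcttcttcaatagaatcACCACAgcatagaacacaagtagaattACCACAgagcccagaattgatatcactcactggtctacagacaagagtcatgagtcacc
Klrk1 promoter, chr6:129623815-129624114: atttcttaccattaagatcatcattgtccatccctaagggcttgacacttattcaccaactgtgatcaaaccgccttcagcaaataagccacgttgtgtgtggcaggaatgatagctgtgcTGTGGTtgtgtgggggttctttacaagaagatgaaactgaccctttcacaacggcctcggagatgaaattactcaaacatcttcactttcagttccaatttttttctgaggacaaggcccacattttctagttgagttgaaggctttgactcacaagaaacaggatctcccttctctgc

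The core stood 87 bases before the start of Klrc1, 36 and 9 bases before that of Klrc2, and 129 bases before that of Klrk1. These are matches of letters, and no binding was measured.

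Some of the genes have near-identical relatives, which limits what a read from the 3′ end can tell. Of the 75-base windows of Klrc1 transcripts, 25% also occurred in another gene (Klrc2 or Klrc3), and 47.2% did so in the last 400 bases, where 3′ reads fall. The share was 11.3% for Klrc2 and 0% in its last 400 bases, 13.2% for Klrb1c, 6.39% for Klra3 (shared with Klra9, Klra10, and Klra11-ps), 0.886% for Klri2, and 0% for Klrd1, Klrk1, Klrg1, and Klre1. Klrb1c also overlaps Gm44511 on the same strand. The longest coding run that Klrc1 and Klrc2 share was 100 bases long and reached the end of both coding sequences (bases 633 to 732 of Klrc1 and 615 to 714 of Klrc2).
Shared run of Klrc1 and Klrc2: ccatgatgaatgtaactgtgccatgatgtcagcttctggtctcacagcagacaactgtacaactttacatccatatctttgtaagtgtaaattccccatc

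Klrc1 levels are therefore uncertain where Klrc2 or Klrc3 reads could be assigned to it or dropped, and Klra3 levels where other Ly49 genes could.

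A CD8 library held 153266 to 25960721 UMIs (median 5022553), and an NK library 276903 to 973553 UMIs. Of 71946 distinct barcodes, 690 (0.959%) occurred in more than 1 library, with at most 21 shared by a pair. Cd8a or Cd8b1 UMIs were present in 77.2% to 100% of the cells of 6 CD8 matrices but in 47.4%, 44.2%, and 46.8% of the cells labelled 24-week kidney, 1-week spleen, and 3-week spleen. Values of strict cells are therefore given beside the main changes, and these cells had a Cd8a or Cd8b1 UMI, a CD3 UMI, and no Cd4 or Ncr1 UMI. The share of all genes called in strict cells was not counted, so counts of members called there have no background. Genes of the kidney parenchyma did not follow the 24-week labels of the tissues. Of these genes, 6 of 8 had 0 UMIs in the libraries labelled 24-week kidney, whereas 6 of 8 were detected in those labelled 24-week spleen and 8 of 8 in 1- and 3-week kidney. These genes alone do not settle the tissue. In rejecting kidney 4 of 8 also had 0 UMIs, but its libraries were shallower. They held 2377015 to 3081986 UMIs, against 5542803 to 7685811 in those labelled 24-week kidney. The 1- and 3-week spleen matrices list 3 of these 8 genes, which summed to 39.5 to 59.6 CPM (UMIs per 1000000 UMIs of a library) at 1 week and 8.90 to 15.98 CPM at 3 weeks, against 26.1 to 28.0 and 23.5 to 30.1 CPM for all 8 in kidney and 0.785 to 2.83 CPM in naive spleen. All 8 summed to 4.16 to 14.5 CPM in the libraries labelled 24-week kidney and 31.3 to 45.1 CPM in those labelled 24-week spleen. These libraries are named as labelled, and every direction between them is that of the labels.

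In the CD8 cells of accepted kidneys, the receptor genes changed between 1 and 3 weeks in both directions. The CD94 partner genes rose, Klrc2 most among Klrd1, Klrc1, and Klrc2, while Klrk1 and Klrg1 fell. Klrd1 was at 196, 222, and 208 CPM in the 1-week libraries and at 350, 260, 325, 294, and 343 CPM in those of 3 weeks, so that the groups did not overlap. Klrc1 rose from 98.7, 132, and 102 CPM to between 156 and 208 CPM (median 189), and Klrc2 from 64.0, 61.1, and 55.2 CPM to between 144 and 179 CPM (median 165). Klrk1 went the other way, from 119, 112, and 118 CPM to between 56.7 and 87.5 CPM, again without overlap. How many of all genes had no overlap was not counted. Klrg1 was low at both times and fell from 5.90, 2.62, and 4.28 CPM to between 0.358 and 1.16 CPM.

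For each test, UMIs were summed per library and entered the quasi-likelihood test of edgeR with plain library totals, and p-values were adjusted over all genes tested by the Benjamini-Hochberg method. In the kidney at 3 weeks against 1 week, 8 of the 9 members passed an adjusted p of 0.05, 6 higher and 2 lower, where 75.0% of all 11693 genes tested passed (53.5% higher and 21.5% lower, or 35.2% and 35.6% with TMM scaling). That share is near the background, so the count itself says little about these genes. Klrg1, at 0.688 CPM on average at 3 weeks, passed the low-count filter through its 1-week level and could hardly be called higher. The median gene tested was 0.41 higher on the log2 scale at 3 weeks, and the members' changes are therefore also given relative to it. The log2 fold change was 1.43 for Klrc2 (SE 0.0951, adjusted p = 9.64e-09 in edgeR), or 1.02 above the median gene, and -0.75 for Klrk1 (SE 0.110, adjusted p = 1.96e-05 in edgeR), or -1.16 against the median gene. Klrd1 changed by 0.59 (adjusted p = 7.38e-05) and Klrc1 by 0.73 (adjusted p = 3.16e-05) in edgeR. Relative to the median gene these were 0.18 and 0.33, and with TMM scaling, which moved that median to 0.03, Klrd1 no longer passed (0.21, adjusted p = 0.0896) and Klrc1 did (0.35, adjusted p = 0.0219). In strict cells the changes were 0.49 for Klrd1, 0.64 for Klrc1, 1.37 for Klrc2, and -0.81 for Klrk1. Klrg1 fell by 2.60 (adjusted p = 5.83e-06) and in strict cells by 1.99 (adjusted p = 2.85e-04), and NK rule cells held 7.93% of its 1-week UMIs. Relative to the median gene its change was -3.01.

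Among the rarer genes, Klre1 rose from between 11.8 and 15.2 CPM to between 21.6 and 43.4 CPM (log2 fold change 1.45, SE 0.189, adjusted p = 6.75e-06 in edgeR). Klri2, which encodes a partner of KLRE1, rose from between 2.69 and 3.19 CPM to between 7.13 and 11.6 CPM (1.67, SE 0.182, adjusted p = 1.07e-06 in edgeR). Relative to the median gene these were 1.04 and 1.26. The libraries of both times did not overlap for either gene, and the share of all genes without overlap was not counted. Klra3 had a log2 fold change of 0.68 (adjusted p = 0.00186), of which 0.27 was above the median gene, and it did not pass with TMM scaling (adjusted p = 0.143). Klrb1c was at 1.64, 1.27, and 4.62 CPM at 1 week and 2.41 to 6.89 CPM at 3 weeks and did not pass (0.75, or 0.34 above the median gene, adjusted p = 0.0802). The third 1-week library set this value, since without it the change was 1.64 (adjusted p = 0.000663), and the gene also passed without the first 3-week library (0.90, adjusted p = 0.0320). Cells that met the NK rule held 31.9% of the Klrb1c UMIs of the 1-week kidney matrix, although they were 41 of its 16467 cells, and in strict cells, which exclude them, the change was 2.07 (adjusted p = 3.45e-05). NK rule cells also held 15.7% of the Klri2 UMIs and 10.5% of the Klre1 UMIs at 1 week, and the changes in strict cells were 1.96 and 1.66. Klrb1c and Klre1 are part of the NK rule, so their shares partly restate the choice of cells. The 12 NK marker genes, which include the members Klre1 and Klrb1c, summed to 993 to 1164 CPM at 1 week and 1022 to 1687 CPM at 3 weeks. All 12 were detected at both times, and Ncr1, a receptor of NK cells, was at 2.52 ± 1.06 CPM (SD, n = 3) and 0.613 ± 0.421 CPM (SD, n = 5). An ILC1-like list (Tmem176a, Tmem176b, Cxcr6, Il7r, and Itga1), some genes of which CD8+ T cells also express, summed to 286 to 405 CPM at 1 week and 1210 to 1477 CPM at 3 weeks with all 5 detected. Its part in the changes was not tested.

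**Figure D1:**
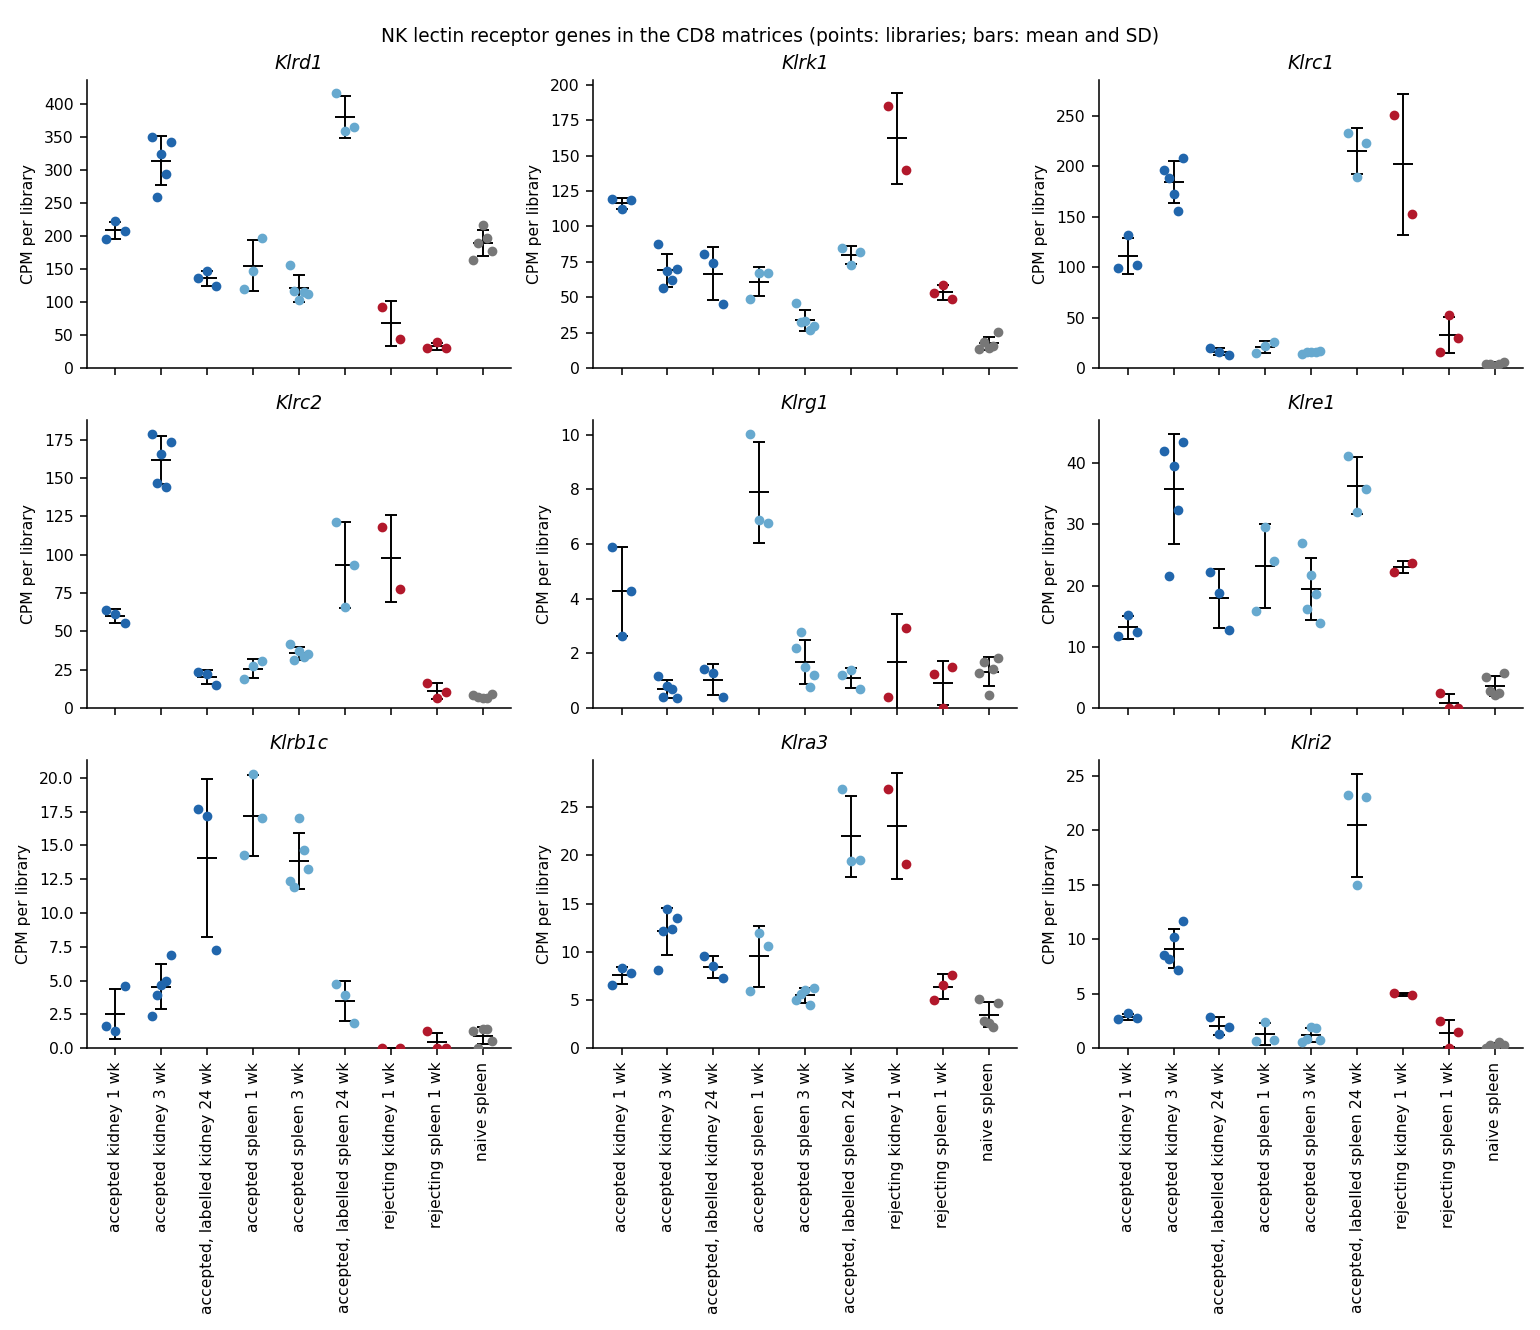
Level of each member gene in the 9 CD8 matrices. Points are libraries in CPM (linear axes that start at 0 and differ between genes), and bars give the mean and SD. Klrd1, Klrc1, and Klrc2 stood higher in accepted kidney at 3 weeks than at 1 week, Klrk1 lower, and Klrd1 had its lowest levels in the rejecting samples.

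Shares of cells followed the same pattern after each cell was thinned to 1000 UMIs, which removes differences in depth. A Klrd1 UMI was found in 18% of 1-week cells (95% exact binomial interval 17.4% to 18.6%, which covers counting error only) and 23.4% of 3-week cells (22.8% to 23.9%). For Klrc2 the shares were 5.79% (5.44% to 6.15%) and 13.7% (13.2% to 14.1%), and for Klrk1 11.2% (10.8% to 11.7%) and 5.76% (5.46% to 6.07%). In naive spleen cells with at least 2 of 3 B cell genes, which should lack these receptors, 0.149% had a Klrd1 UMI and 0.0496% a Klrk1 UMI (median 2664 UMIs per cell). Among naive spleen cells with myeloid markers the shares were 2.33% and 1.62%, and no such background was taken from an accepted graft. A UMI of at least 1 of the 9 genes was found in 37.5% of thinned 1-week cells and 46.0% of 3-week cells, and of at least 3 in 1.35% and 2.99%.

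In accepted kidney at 1 and 3 weeks, Klrd1 UMIs were more frequent in cells that also had a UMI of Klrc1, Klrk1, Klrc2, or Klre1. In all 5 libraries of 3-week kidney, thinned cells with a Klrc1 UMI had a Klrd1 UMI more often (27.3% to 35.2%) than cells without one (19.7% to 24.1%). The shares were 34.9% to 45.7% among cells with a Klrk1 UMI against 20.2% to 24.1% among those without, and 40.5% to 51.9% against 20.6% to 24.4% for Klre1. Klrc2 UMIs were found in 16.5% to 24.4% of the cells with Klrc1 and in 11.2% to 13.6% of those without. The inhibitory and the activating partner of CD94 were thus found in the same cells, although reads that Klrc1 and Klrc2 share could be assigned to either, and their part in this share was not tested. The 1-week libraries had the same order for each of these pairs, with Klrd1 in 22.3% to 25.8% of cells with and 16.7% to 17.9% of cells without a Klrc1 UMI. The order was the other way for Klrg1 in 1-week spleen, where Klrd1 was found in 3.03% to 4.55% of cells with a Klrg1 UMI (3 of 85 cells in all) and in 10.4% to 15.2% of those without. In that matrix, before thinning, 30.2% of 172 cells with Klrg1 had a CD8 UMI (and 41 a Cd4 UMI), against 73.8% of 3017 cells with Klrd1. No doublet caller was run, and the part of doublets in these shares was not tested.

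**Figure D2:**
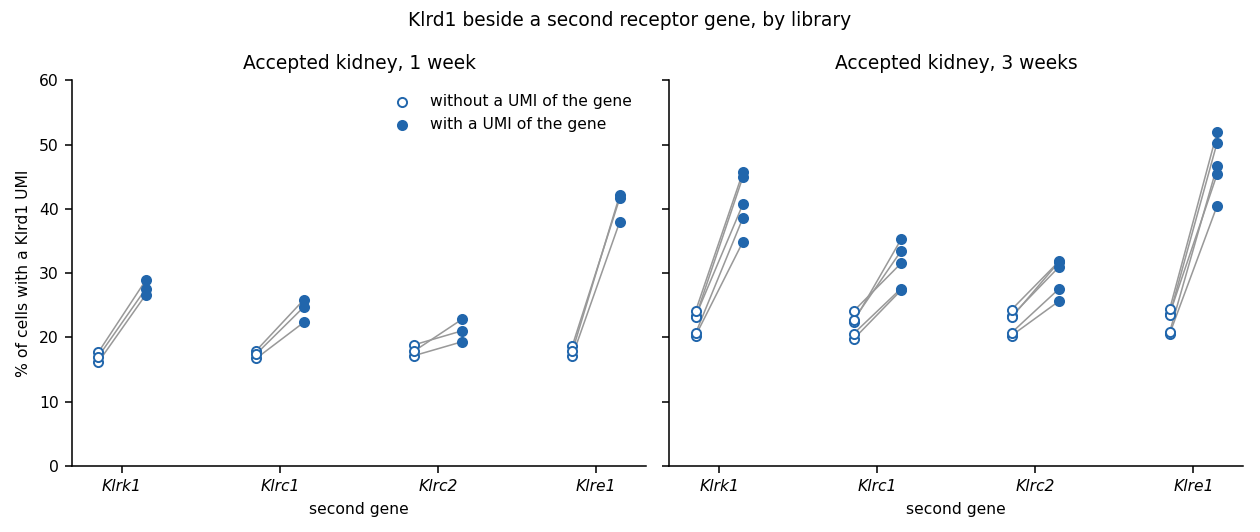
Share of thinned cells with a Klrd1 UMI among cells without (open) and with (filled) a UMI of a second receptor gene, in percent, with 1 line per library. In each library of 1 and 3 weeks the share was higher among cells with the second gene, and the highest shares were beside Klre1.

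Beside these receptors, the list of 21 adaptor and signaling genes had 17 higher and 1 lower of 20 tested at 3 weeks against 1 week, with a median log2 fold change of 0.86 against 0.41 for all genes. Of all genes, 53.5% were called higher and 21.5% lower, or 35.2% and 35.6% with TMM scaling, and the counts of these lists are to be read against those shares. Hcst, the adaptor DAP10 of NKG2D, rose from 352 ± 128 CPM (SD, n = 3) to 849 ± 70.4 CPM (SD, n = 5), by 1.27 on the log2 scale (adjusted p = 1.43e-05), or 0.86 above the median gene, although its receptor gene Klrk1 fell. Fcer1g, an adaptor that associates with several activating receptors, rose by 1.81 (adjusted p = 4.47e-06), and Syk, a kinase downstream of such adaptors, by 1.95 (adjusted p = 1.61e-04), which were 1.40 and 1.55 above the median gene. Sh2d1a, the adaptor SAP, fell by 1.31 (adjusted p = 1.74e-07). Of 22 other lectin genes of the NK complex, 5 rose and 9 fell among 17 tested (median -1.10), with Klrb1 (3.06), Klrc3 (2.69), and Cd69 (0.91) as the largest rises and Klra4 (-3.01), Klra8 (-2.12), and Klra6 (-1.75) as the largest falls on the log2 scale. Klrb1 and Klrc3 rested on 6 and 11 UMIs at 1 week. Of 13 ligand genes, 4 rose and 2 fell among 9 tested (median 0.20). Cdh1, which encodes E-cadherin, a ligand of KLRG1, rose by 2.81 from 6.99 ± 2.69 CPM (SD, n = 3) to 47.3 ± 1.5 CPM (SD, n = 5), and H2-T23, the ligand of the CD94 receptors, fell by 0.68 from 153 ± 22.8 to 95.1 ± 17.7 CPM. H2-K1 (0.77) and H2-Q7 (0.53), classical and nonclassical MHC class I genes, passed, but only 0.36 and 0.12 of these changes was above the median gene. Ulbp1, which encodes the NKG2D ligand MULT1, was lower (-0.61).

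Kidney was then compared with spleen of the same model at each time. In accepted recipients at 1 week, Klrc1, Klrc2, and Klrk1 were higher in the kidney, whereas Klre1 (-0.81, adjusted p = 0.00609 in edgeR) and Klrb1c (-2.64, adjusted p = 1.17e-04 in edgeR) were higher in the spleen. Klrc1 was at 14.8, 21.4, and 26.2 CPM in spleen against 98.7 to 132 CPM in kidney (log2 fold change 2.41, adjusted p = 2.57e-06 in edgeR, and 2.26 in strict cells). Klrk1 was at 49.1, 66.9, and 67 CPM in spleen and changed by 0.93 (adjusted p = 1.07e-04 in edgeR, and 1.06 in strict cells). Klrd1 differed by 0.43 in all matrix cells (adjusted p = 0.0356 in edgeR) and by 0.01 in strict cells (adjusted p = 0.973). In all, 5 members were higher and 3 lower, where 51.4% of 11707 genes passed, 27.3% higher and 24.1% lower. In strict cells 4 were higher and 2 lower, with no share of all genes counted there. The remaining calls were Klrc2 (1.22, adjusted p = 9.12e-05), Klri2 (1.22, adjusted p = 0.0221), and Klrg1 (-0.89, adjusted p = 0.0170) in edgeR, of which Klrg1 did not pass in strict cells (-0.57, adjusted p = 0.208). Klri2, at 1.30 CPM on average in spleen, passed the low-count filter through its kidney level and could hardly be called lower. Klrd1 lost its call with TMM scaling (adjusted p = 0.0555) and without kidney library 1 or 2 or spleen library 1 or 2 (adjusted p = 0.0601 to 0.138). Klri2 lost it without kidney library 2 or spleen library 1 or 3 (adjusted p = 0.0621 to 0.0908) and Klrg1 without spleen library 1 (adjusted p = 0.0838), where Klra3 gained one (-0.58, adjusted p = 0.0264). Markers of other cells differed between the tissues as well. The 3 B cell genes summed to 8.50 to 9.21 CPM in 1-week kidney and 447 to 896 CPM in spleen. Trdc, of gamma-delta T cells, was at 2.55 to 4.71 and 26.8 to 31.4 CPM. The 12 NK marker genes summed to 993 to 1164 and 245 to 322 CPM, but did not all move together. Gzma (300 and 108 CPM on average) and Fcer1g (141 and 28.1 CPM) were higher in kidney. Ncr1 (2.52 and 3.94 CPM) and Eomes (8.61 and 26.0 CPM) were lower, and Tyrobp (27.2 and 28.2 CPM) was level. Cells that met the NK rule were 41 of 16467 in kidney and 8 of 11913 in spleen. The part of other cells in these differences was not tested.

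At 3 weeks, too, the CD94 partner genes were higher in the kidney, and the size of the gap was not tested against that at 1 week. Klrc1 was at 13.7 to 16.8 CPM in the 5 spleen libraries and 156 to 208 CPM in kidney, a log2 fold change of 3.55 (SE 0.0942, adjusted p = 2.65e-16 in edgeR) and of 3.91 in strict cells. Klrc2 was at 31.0 to 42.0 CPM in spleen (2.17, adjusted p = 1.06e-13 in edgeR), Klrd1 at 104 to 156 CPM (1.38, adjusted p = 6.96e-10 in edgeR), and Klri2 at 0.598 to 1.94 CPM (2.98, adjusted p = 1.28e-08 in edgeR). Kidney and spleen libraries did not overlap for these 4 genes, nor for Klrk1 (27.0 to 45.8 CPM in spleen), which differed by 1.03 (adjusted p = 1.02e-06 in edgeR). The share of all genes without overlap was not counted, so this says little about these genes. Klre1, higher in the spleen at 1 week, was higher in the kidney at 3 weeks, with overlap (21.6 to 43.4 against 13.9 to 26.9 CPM, 0.87, adjusted p = 3.42e-04 in edgeR, and 0.90 in strict cells). Of 8 members tested, 7 were higher and 1 lower (67.5% of 10944 genes passed, 47.3% higher and 20.2% lower, or 32.3% and 30.5% with TMM scaling). Klri2, at 1.18 CPM on average in spleen, passed the low-count filter through its kidney level and could hardly be called lower. The 1 lower gene was Klrb1c (-1.59, adjusted p = 1.24e-06 in edgeR), and it differed by -0.05 in strict cells (adjusted p = 0.890). In strict cells the changes were 2.37 for Klrc2, 0.89 for Klrd1, 4.39 for Klri2, and 1.29 for Klrk1. There 7 members were higher and 0 lower, and the share of all genes was not counted. Klrg1 was too low to be tested.

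In the libraries labelled 24 weeks the direction between the tissues was the opposite. Klrc1 was at 19.7, 16.1, and 12.6 CPM in those labelled kidney and 233, 189, and 223 CPM in those labelled spleen (-3.76, SE 0.140, adjusted p = 4.34e-12 in edgeR), and Klrd1 at 137, 148, and 124 CPM against 417, 360, and 365 CPM (-1.49, adjusted p = 2.15e-09 in edgeR). In strict cells these changes were -4.68 and -0.95. For comparison, Klrc1 was at 156 to 208 CPM in 3-week kidney and at 13.7 to 26.2 CPM in the spleens of 1 and 3 weeks. The share of cells with a CD8 UMI was 94.6% in those labelled spleen and 47.4% in those labelled kidney. Of 8 members tested, 1 was higher and 6 lower as labelled, where 53.1% of 10381 genes passed, 16.4% higher and 36.7% lower (25.1% and 26.8% with TMM scaling). Klri2, at 2.04 CPM on average in labelled 24-week kidney, passed the low-count filter through labelled spleen and could hardly be called higher. Klrb1c, the 1 higher gene (1.94), was at -0.64 in strict cells (adjusted p = 0.222), and Klrk1 (-0.28, adjusted p = 0.161) passed in strict cells (-1.24, adjusted p = 8.74e-07) and without labelled 24-week kidney library 1 (-0.43, adjusted p = 0.0391). In strict cells 0 members were higher and 7 lower, and no share of all genes was counted in strict cells for any comparison. Against 3-week kidney, the libraries labelled 24-week kidney had 1 member higher and 6 lower (73.5% of 11617 genes passed, 16.6% higher and 56.9% lower, or 31.8% and 33.8% with TMM scaling), with Klrc1 lower by 3.54 and Klrc2 by 3.01 on the log2 scale (adjusted p = 9.33e-12 and 3.02e-11 in edgeR), and by 4.47 and 3.86 in strict cells, where 0 members were higher and 7 lower. Klrk1 did not pass there (-0.06, adjusted p = 0.740) and was positive with TMM scaling (0.36, adjusted p = 0.0573), but was lower by 1.06 in strict cells (adjusted p = 8.31e-06). The higher gene was Klrb1c (1.59, adjusted p = 1.78e-04), which was lower in strict cells (-0.99, adjusted p = 0.0422). Klra3 (-0.53, adjusted p = 0.0167) lost its call without labelled 24-week kidney library 3 (adjusted p = 0.0957).

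In accepted spleen at 1 and 3 weeks, cells with a Klrb1c UMI were mostly T cells without a CD8 UMI. Of 413 cells with a Klrb1c UMI in 1-week accepted spleen, 311 (75.3%) had a CD3 UMI but none of Cd8a, Cd8b1, or Cd4, and 64 had a CD8 UMI. The counts were 136 of 200 (68.0%) in 3-week spleen and 118 of 154 (76.6%) in the libraries labelled 24-week kidney, while in 3-week kidney 181 of 184 such cells (98.4%) had a CD8 UMI, as did 38 of 40 in the libraries labelled 24-week spleen. For Klrd1 in 1-week spleen, 2226 of 3017 carrying cells (73.8%) had a CD8 UMI. In strict cells the Klrb1c level was within 2.75 to 6.37 CPM in the 8 spleen libraries of 1 and 3 weeks, against 11.9 to 20.3 CPM in all matrix cells.

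Spleens of accepted recipients carried more of most of these receptor transcripts than naive spleen, with Klrd1 as the exception. Klrk1 was at 13.5 to 25.4 CPM in the 5 naive libraries (median 15.7), Klrc1 at 1.92 to 6.28 CPM, and Klrc2 at 6.47 to 9.16 CPM. For each of these genes every 1-week spleen library lay above every naive one, and the share of all genes for which this held was not counted. At 1 week Klrk1 was higher by 1.83 (SE 0.152, adjusted p = 4.27e-08 in edgeR), Klrc1 by 2.41 (adjusted p = 2.34e-07 in edgeR), Klrc2 by 1.77 (adjusted p = 1.61e-07 in edgeR), and Klre1 by 2.67 (adjusted p = 1.72e-07 in edgeR). In strict cells these were 1.82, 2.79, 1.84, and 2.35. Klrg1 (2.57, and 1.56 in strict cells), Klra3 (1.44), and Klrb1c (4.10, and 2.11 in strict cells) were also higher. Of the 172 cells with a Klrg1 UMI in 1-week spleen, 52 had a CD8 UMI. Klrd1 did not pass (-0.29, adjusted p = 0.0544) and had the opposite sign in strict cells (0.21, adjusted p = 0.0901), although it passed without 1-week spleen library 3 (-0.50, adjusted p = 5.99e-05) or naive library 1 (-0.34, adjusted p = 0.0344). Naive CD8 cells held 164 to 218 CPM of Klrd1. Of 8 members tested, 7 were higher and 0 lower, where 60.2% of 10348 genes passed, 25.0% higher and 35.2% lower (30.0% and 28.3% with TMM scaling). Klrb1c and Klrg1, at 0.928 and 1.33 CPM on average in naive spleen, passed the low-count filter through their 1-week levels. These 2 genes could hardly be called lower, so they add no support to this count.

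At 3 weeks, compared with the same naive libraries, 6 members were higher and 1 lower of 7 tested, where 22.4% of 9848 genes passed, 14.8% higher and 7.66% lower (12.1% and 10.7% with TMM scaling). Klrk1 was higher by 0.98, Klrc1 by 2.01, Klrc2 by 2.25, and Klre1 by 2.43 (adjusted p = 1.65e-05, 4.07e-09, 2.67e-13, and 3.53e-09 in edgeR). The lower gene was Klrd1 (-0.64, adjusted p = 4.40e-06 in edgeR), which did not pass in strict cells (-0.18, adjusted p = 0.196). In strict cells 4 members were called, each higher, and the share of all genes called there was not counted. Klrb1c was higher by 3.77 (adjusted p = 3.95e-11 in edgeR). At 0.928 CPM on average in naive spleen, it passed the low-count filter through its 3-week level and could hardly be called lower. Klra3 (0.65, adjusted p = 0.0466) lost its call with TMM scaling (adjusted p = 0.0643), in strict cells (adjusted p = 0.0766), and without 3-week library 2, 3, or 5 or naive library 2, 3, or 4 (adjusted p = 0.0787 to 0.148). Genes of B cells moved with these groups. The 3 B cell genes summed to 447 to 896 CPM in 1-week spleen, 101 to 256 CPM in 3-week spleen, and 23.7 to 48.6 CPM in naive spleen, and their part in the values of all matrix cells was not tested. The sum of the NK marker genes and the level of Trdc, too, were at their lowest in naive spleen. The 12 NK marker genes summed to 245 to 322 CPM in 1-week spleen, 182 to 229 CPM in 3-week spleen, and 132 to 160 CPM in naive spleen, with all 12 detected in each. This list includes the members Klre1 and Klrb1c, and its gene Eomes went the other way (26.0, 38.9, and 55.2 CPM on average). Trdc, the constant gene of the T cell receptor delta chain, was at 28.9 ± 2.32 CPM (SD, n = 3), 46.4 ± 9.41 CPM (SD, n = 5), and 10.8 ± 5.31 CPM (SD, n = 5). The adaptor genes Tyrobp (28.2, 16.7, and 2.60 CPM on average) and Fcer1g (28.1, 21.1, and 1.28 CPM) had the same order between accepted and naive spleen. The 5 genes of the ILC1-like list went the other way, with 345 to 517, 475 to 702, and 699 to 824 CPM, and the part of such cells was not tested.

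The rejecting recipients were compared with accepted ones at 1 week. Klrd1 was lower in rejecting samples in both tissues, whereas its partner gene Klrc1 was not called lower in either. In kidney, Klrd1 was at 92.1 and 43.8 CPM in the rejecting libraries against 196 to 222 CPM in accepted ones, without overlap. It changed by -1.63 on the log2 scale (SE 0.290, adjusted p = 0.00142 in edgeR), or -2.32 against the median gene, which was 0.70 higher in rejecting kidney. In strict cells the change was -1.62. Klrc1 was at 251 and 152 CPM in rejecting and 98.7 to 132 CPM in accepted kidney (0.86, SE 0.236, adjusted p = 0.0123 in edgeR), which was 0.17 above the median gene and did not pass with TMM scaling (0.17, adjusted p = 0.609). After thinning, 6.46% of rejecting kidney cells (5.46% to 7.57%) had a Klrd1 UMI and 18.6% (17% to 20.3%) a Klrc1 UMI, against 18% and 10.6% in accepted kidney. The 12 NK marker genes summed to 692 and 778 CPM in rejecting and 993 to 1164 CPM in accepted kidney. The ILC1-like list summed to 514 and 914 against 286 to 405 CPM, and the part of such cells was not tested.

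Klrk1 was at 185 and 140 CPM in rejecting kidney and 112 to 119 CPM in accepted kidney. Its change of 0.48 (adjusted p = 0.0395 in edgeR) was below that of the median gene and had the opposite sign with TMM scaling (-0.21, adjusted p = 0.316). Klrc2 (0.70, adjusted p = 0.0157 in edgeR) and Klre1 (0.81, adjusted p = 0.00807 in edgeR) differed from the median gene by 0.00 and 0.11, and neither passed with TMM scaling (adjusted p = 0.966 and 0.670). Klra3 was at 26.9 and 19.1 CPM in rejecting and 6.57 to 8.29 CPM in accepted kidney (1.60, adjusted p = 4.14e-04 in edgeR, and 0.91 with TMM scaling, adjusted p = 0.0143). Klrb1c had 0 UMIs in rejecting kidney and 160 in accepted kidney, so it was at least 5.45-fold lower when set against a limit of 3 counts over the group (0.550 CPM). Accepted kidney library 3 held 120 of these 160 UMIs, and without it the gene was at least 2.65-fold lower. In strict cells of accepted kidney Klrb1c was at 1.05 ± 0.329 CPM (SD, n = 3). Klrg1 rested on 10 UMIs in rejecting kidney and did not pass (-1.23, adjusted p = 0.131), although it did with TMM scaling (-1.91, adjusted p = 0.0328) and without rejecting kidney library 3 (-3.31, adjusted p = 0.0180), where Klrb1c lost its call (adjusted p = 0.0522). In all, 5 members were called higher and 2 lower, where 59.4% of 12533 genes passed, 48.9% higher and 10.5% lower (27.5% and 25.7% with TMM scaling). Klrb1c, 1 of the 2 lower genes, passed the low-count filter through accepted kidney alone and could hardly be called higher. With TMM scaling or DESeq2, 4 members were called, and likewise without rejecting kidney library 2, where the lone other library is assumed to vary like the accepted ones. Without it the changes were 0.46 for Klrc1 (adjusted p = 0.0633), 0.26 for Klrk1 (adjusted p = 0.220), and 0.37 for Klrc2 (adjusted p = 0.117). Klrk1 also lost its call without any 1 of the 3 accepted libraries (adjusted p = 0.0913, 0.120, and 0.0916), Klrc1 without library 1 (adjusted p = 0.0568), and Klrc2 without library 2 or 3 (adjusted p = 0.0513 and 0.0557).

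**Figure D3:**
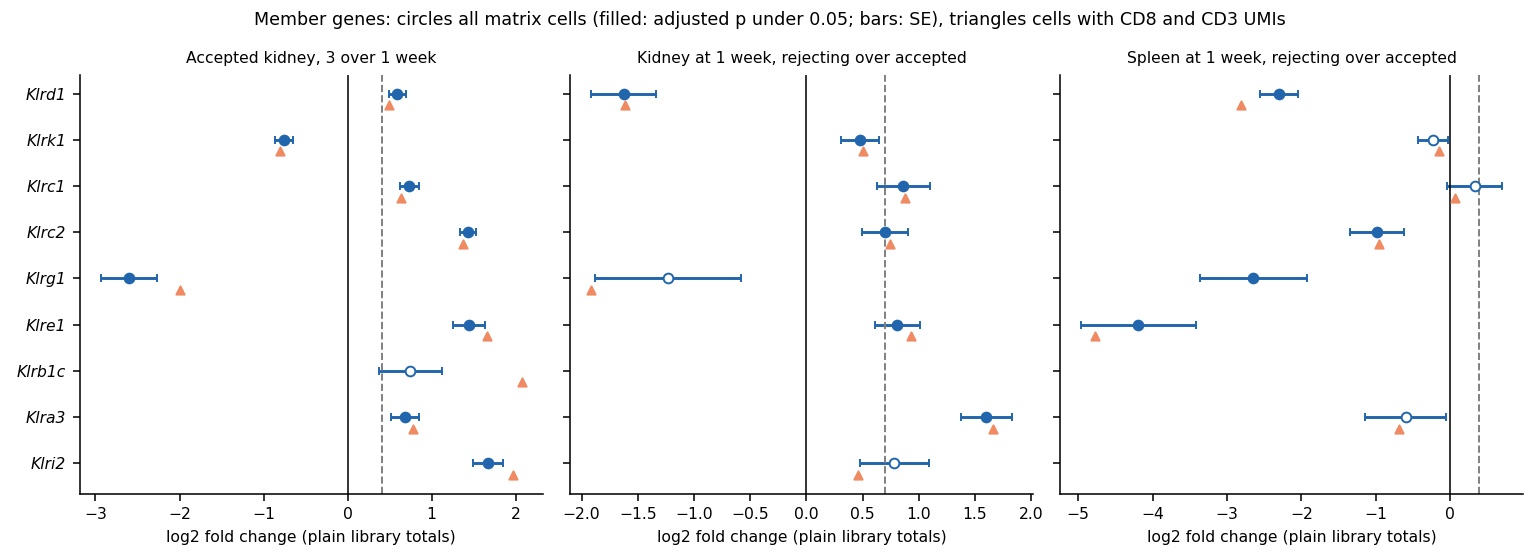
Log2 fold changes of the members (horizontal axes, which differ in range) in 3 comparisons. Circles are all matrix cells with the SE, filled where the adjusted p was under 0.05, triangles are strict cells, and the dashed line is the median of all genes tested. Klrb1c is left out of the rejecting comparisons, where it had 0 or 1 UMI, Klri2 was too low to be tested in spleen, and Klrd1 lay far to the left of the dashed line in both of them.

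In spleen, Klrd1 was at 30.2, 39.1, and 30.2 CPM in rejecting libraries and 120 to 197 CPM in accepted ones (-2.31, SE 0.255, adjusted p = 1.14e-05 in edgeR, and -2.81 in strict cells). Klrc1 was at 16.4, 52.2, and 30.2 CPM against 14.8 to 26.2 CPM, with overlap, and did not pass (0.33, adjusted p = 0.492, and -0.080 with TMM scaling). Klrk1 did not pass either (-0.23, adjusted p = 0.369), although it was lower with TMM scaling (-0.64, adjusted p = 0.0137). Klre1 rested on 2 UMIs, Klrb1c on 1 UMI, and Klrg1 on 2 UMIs in the rejecting spleen, with ratios to accepted spleen of 0.0544 (0.00658 to 0.197), 0.0366 (0.000925 to 0.205), and 0.157 (0.0190 to 0.574) and exact intervals that cover counting error only. These rejecting libraries were the shallowest, from 153266 to 794456 UMIs. Of 8 members tested, 0 were higher and 5 lower, where 48.4% of 10573 genes passed, 36.2% higher and 12.2% lower (24.1% and 23.2% with TMM scaling). Klre1, Klrb1c, and Klrg1 passed the low-count filter through accepted spleen and could hardly be called higher. In strict cells 3 were lower, with no share of all genes counted there, and 3 were called without rejecting library 1 or accepted library 2 or 3. Klrc2 (-0.98, adjusted p = 0.0408) rested on 21 UMIs in rejecting spleen and lost its call without any 1 rejecting library (adjusted p = 0.0593, 0.0831, and 0.190) or without accepted library 2 or 3 (adjusted p = 0.0633 and 0.0816). Klrg1 (-2.65, adjusted p = 0.00841) lost it without rejecting library 1 (adjusted p = 0.0595). Cells with a CD8 UMI made up 100% of the rejecting and 44.2% of the accepted spleen matrix. The 3 B cell genes summed to 58.7 to 258 CPM in rejecting and 447 to 896 CPM in accepted spleen. Trdc was at 0 to 10.6 against 26.8 to 31.4 CPM, and the NK marker genes at 218 to 307 against 245 to 322 CPM. The part of such cells was not tested.

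Within the rejecting model, 5 of 6 members tested were called, each higher in kidney (16.1% of 8205 genes passed, 10.8% higher and 5.34% lower, or 6.65% and 6.87% with TMM scaling). Members low in spleen, such as Klre1 (0.839 CPM on average) and Klra3 (6.37 CPM), passed the low-count filter only through the kidney. These could hardly be called lower, so the count is no support for a direction. The 12 NK marker genes summed to 692 and 778 CPM in kidney and 218 to 307 CPM in spleen. The 3 B cell genes were at 4.54 and 7.15 against 58.7 to 258 CPM. The ILC1-like list was at 514 and 914 against 385 to 561 CPM, and the part of such cells was not tested. Klrc1 (2.88, SE 0.391, adjusted p = 2.17e-04) and Klrc2 (2.92, SE 0.374, adjusted p = 1.42e-04) were higher in edgeR, with 41 and 21 UMIs in the rejecting spleen, and Klrk1 changed by 1.63 (adjusted p = 0.00135). Klre1 had 126 UMIs in kidney and 2 in spleen, a ratio of 18.6 (5.03 to 155). Klrd1 did not pass (1.10, adjusted p = 0.0595) and did in strict cells (1.19, adjusted p = 0.0409) and without kidney library 3 (1.55, adjusted p = 0.00215). Klra3 (1.86, adjusted p = 0.0191) lost its call without kidney library 2 or spleen library 1 or 3 (adjusted p = 0.0635 to 0.148). Where a rejecting kidney library is left out, the lone other one is assumed to vary like the other groups. The difference between kidney and spleen was then compared between the models in 1 fit. Only Klre1 passed among the 9 members (5.01, SE 0.727, adjusted p = 0.00408 in edgeR, where 1.42% of 13135 genes passed, 1.08% higher and 0.343% lower, or 0.685% and 0.502% with TMM scaling). At 1 week its kidney level exceeded its spleen level in the rejecting model and not in the accepted one, where the difference was -0.81, although at 3 weeks it did in the accepted model as well (0.87). Klrc2 (1.69) and Klra3 (2.20) did not pass, both with an adjusted p of 0.0546, and passed without rejecting kidney library 3 (adjusted p = 0.0154 and 0.0298) or without accepted spleen library 1 (adjusted p = 0.0391 and 0.0240).

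In thinned cells of the rejecting kidney, cells with a Klrc1 UMI had a Klrd1 UMI in 4.35% and 8.55% of cases in its 2 libraries, and cells without one in 4.18% and 8.09%, while in 1-week accepted kidney the shares were 22.3% to 25.8% and 16.7% to 17.9%. Klrc2 was found in 10.9% and 17.5% of rejecting kidney cells with Klrc1 and in 8.0% and 9.85% of those without.

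Of the ligand genes, 4 were higher and 4 lower of 10 tested in rejecting against accepted kidney (median -0.70 against 0.70 for all genes), where 48.9% of all genes were called higher and 10.5% lower, or 27.5% and 25.7% with TMM scaling. Raet1e, a ligand of NKG2D, had 166 UMIs in rejecting and 0 in accepted kidney, Cdh1 was higher by 2.21 (adjusted p = 0.00296), and Ulbp1, which encodes MULT1, was higher by 1.22 (adjusted p = 0.00417). H2-T23 was lower by 1.31 (adjusted p = 0.00125), H2-K1 by 1.35 (adjusted p = 0.00163), and H2-Q7 by 2.42 (adjusted p = 2.07e-04) on the log2 scale. These MHC genes differ in sequence between the strains. Raet1e also had 0 UMIs in the NK cells of naive B6 spleen and 26 in those of rejecting kidney, a B6 graft in DBA/2J recipients. Whether a cell came from donor or recipient was not called. The difference in Raet1e cannot be told apart from one between strains. Among the other NK complex genes, 7 were higher and 4 lower of 17 tested (median 0.25), led by Klrc3 (5.51), Klri1 (5.1), and Klra5 (3.42) upward on the log2 scale, where Klri1 rested on 13 and 3 UMIs. Downward were Klra4 (169 UMIs in accepted and 0 in rejecting kidney, at least 5.75-fold lower), Klra8 (100 and 0 UMIs, at least 3.40-fold lower), and Clec2i (-0.99). Klra4 varied from 2.02 to 4.31 CPM between the accepted libraries, and its limit without the highest library was not computed. Of the adaptor and signaling genes, 16 were higher and 1 lower of 20 tested (median 0.92 against 0.70), with Plcg2 (2.83), Inpp5d (2.45), and Syk (1.97) as the largest rises and Sh2d1a (-1.56) as the fall.

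In NK cells, too, Klrd1 was lower in the rejecting samples. Klrd1 was at 121 and 75.8 CPM in the NK cells of rejecting kidney and at 953, 959, 1031, 1002, and 1034 CPM in those of naive spleen. This was a log2 fold change of -3.33 (SE 0.187, adjusted p = 3.05e-11 in edgeR), and 9.66% (6.51% to 13.7%) against 62.8% (60.1% to 65.4%) of thinned cells had a Klrd1 UMI. Klrc2 was at 99.9 and 86.7 CPM against 620 to 701 CPM (-2.82, SE 0.178, adjusted p = 1.64e-10 in edgeR), and Klrk1 at 386 and 249 CPM against 1129 to 1505 CPM (-2.09, SE 0.179, adjusted p = 1.17e-08 in edgeR). The groups did not overlap for any of these 3 genes, and the share of all genes without overlap was not counted. Klrc1 was at 134 and 108 CPM against 137 to 239 CPM and did not pass (-0.57, adjusted p = 0.0761), although it did with TMM scaling (-0.71, adjusted p = 0.0252) and without naive library 1 or 5 (adjusted p = 0.0494 and 0.0332).

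Klra3 was higher in the rejecting NK cells, at 382 and 376 CPM against 141 to 234 CPM (1.03, SE 0.187, adjusted p = 1.83e-04 in edgeR). Klri2 was at 272 and 209 CPM against 309 to 362 CPM (-0.43, adjusted p = 0.0458), and lost the call without rejecting library 3 (-0.25, adjusted p = 0.355), where the lone other library is assumed to vary like the naive ones, and without naive library 1, 2, 3, or 4 (adjusted p = 0.0544 to 0.0999). Klrg1 was at 128 and 159 CPM against 92.5 to 123 CPM and did not pass (0.46, adjusted p = 0.0759), although it did without naive library 5 (0.52, adjusted p = 0.0496). Of 7 members tested, 1 was higher and 4 lower, where 36.7% of 8441 genes passed, 24.2% higher and 12.5% lower (20.9% and 17.3% with TMM scaling). Klre1 (641 and 480 CPM against 863 to 1042) and Klrb1c (82.7 and 115.6 CPM against 753 to 909) were part of the rule for NK cells and were not tested. The values without them in the rule, for cells chosen by Ncr1 alone (235 and 1159 cells), were -3.37 for Klrd1, -2.81 for Klrc2, -2.09 for Klrk1, and 0.85 for Klra3.

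The NK cells of the samples differed in tissue, transplant, and strain at once, which cannot be told apart. Their matrices also listed different numbers of genes, 32285 for rejecting kidney and 17644 for naive spleen. Of the 4 genes of the rule, 3 or more had a UMI in 120 of 290 cells of rejecting kidney and 1243 of 1309 of naive spleen. These counts are unthinned, with a median of 1507 and 2596 UMIs per cell, and their difference was not tested. The 12 NK marker genes summed to 11241 and 12600 CPM in rejecting kidney, with Klra8 at 0, and to 17022 to 19370 CPM in naive spleen. This list includes the 4 genes of the rule, among them Ncr1, so these values partly restate the choice of cells. Ncr1 was at 603 and 618 CPM against 743 to 879 CPM, the 4 myeloid genes at 1106 and 1661 CPM against 404 to 618 CPM, and the 3 B cell genes at 0 and 3.45 CPM against 280 to 785 CPM. The part of these cells or of free RNA in the values was not tested.

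**Figure D4:**
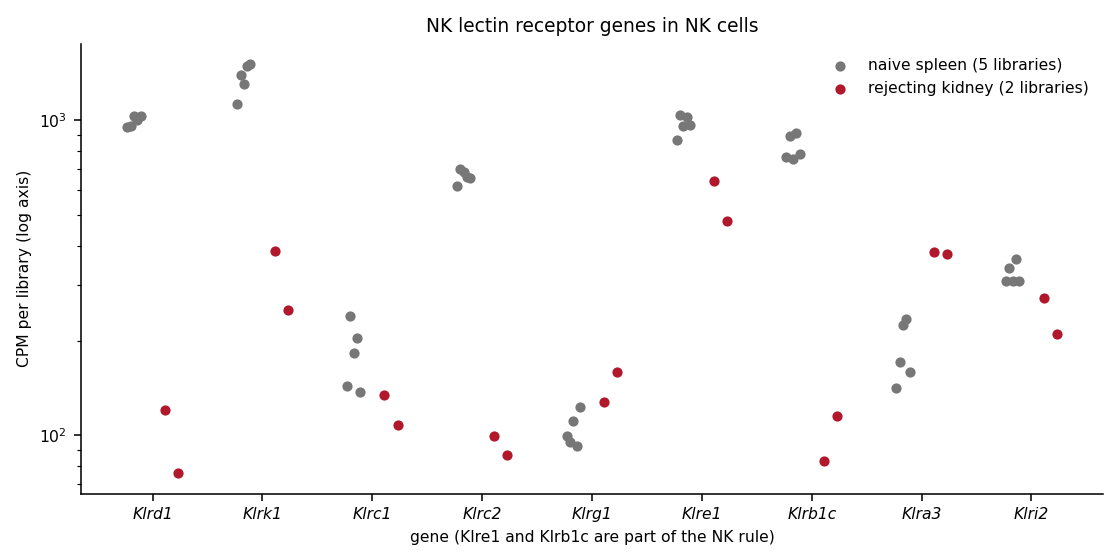
Level of each member gene in NK cells, with 1 point per library, in CPM on a log axis. The 2 rejecting kidney libraries lay below the 5 naive spleen libraries for Klrd1, Klrk1, Klrc1, Klrc2, Klri2, Klre1, and Klrb1c and above them for Klra3 and Klrg1, and Klre1 and Klrb1c were part of the rule for these cells.

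Of the other NK complex genes, 5 were higher and 10 lower of 18 tested in rejecting NK cells (median -0.92 against 0.11 for all genes), where 24.2% of all genes were called higher and 12.5% lower. Klra8, the activating receptor Ly49H, had 0 UMIs against 3419 in naive spleen and was at least 161-fold lower. Klra4 had 3 UMIs against 3495, Klra6 had 0 against 88 (at least 4.15-fold lower), and Klra2 (4.90), Klri1 (4.90), and Clec12a (4.85) were the largest rises. Klra2 rested on 20 and 4 UMIs and Clec12a on 52 and 12 UMIs, and the part of myeloid cells in these rises was not tested. Klri1, the other partner of KLRE1, was at 123 ± 35.8 CPM (SD, n = 2) against 3.62 ± 3.87 CPM (SD, n = 5). Of the adaptor and signaling genes, 8 were higher and 6 lower of 20 tested (median 0.24), with Inpp5d (1.61), Plcg2 (1.57), and Vav1 (1.14) higher and Sh2d1a (-1.37), Fcer1g (-1.11), and Lck (-0.90) lower. Of the ligands, 2 were higher and 3 lower of 8 tested (median -0.17). Raet1e had 26 UMIs against 0, Clec2d was higher by 0.56, and H2-Q7 (-2.05), H2-K1 (-1.50), and Clec2i (-1.41) were lower.

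Klrk1 was also found outside T and NK cells of the rejecting kidney. In 7010 cells with at least 2 of the 4 myeloid genes Lyz2, Csf1r, Cst3, and Itgam, no CD3 UMI, and fewer than 2 of 3 B cell genes, a class set after its values were seen, Klrk1 was at 132 to 161 CPM in the 2 libraries. In cells with a CD3 UMI of the same matrix it was at 132 to 178 CPM. After thinning, 13.6% of the myeloid-marker cells (12.8% to 14.4%) had a Klrk1 UMI, and 25.8% and 32.9% before thinning. In the same cells Klrd1 was at 0.418 to 1.44 CPM and Klrc1 at 1.36 to 2.37 CPM, although in CD3 cells Klrc1 stood at 132 to 225 CPM. In naive spleen 1.62% (0.927% to 2.61%) of the corresponding 1039 cells had a thinned Klrk1 UMI, at 9.12 to 57.7 CPM, while Klrd1 was at 19.8 to 109 CPM. The difference between the matrices was not tested.

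**Figure D5:**
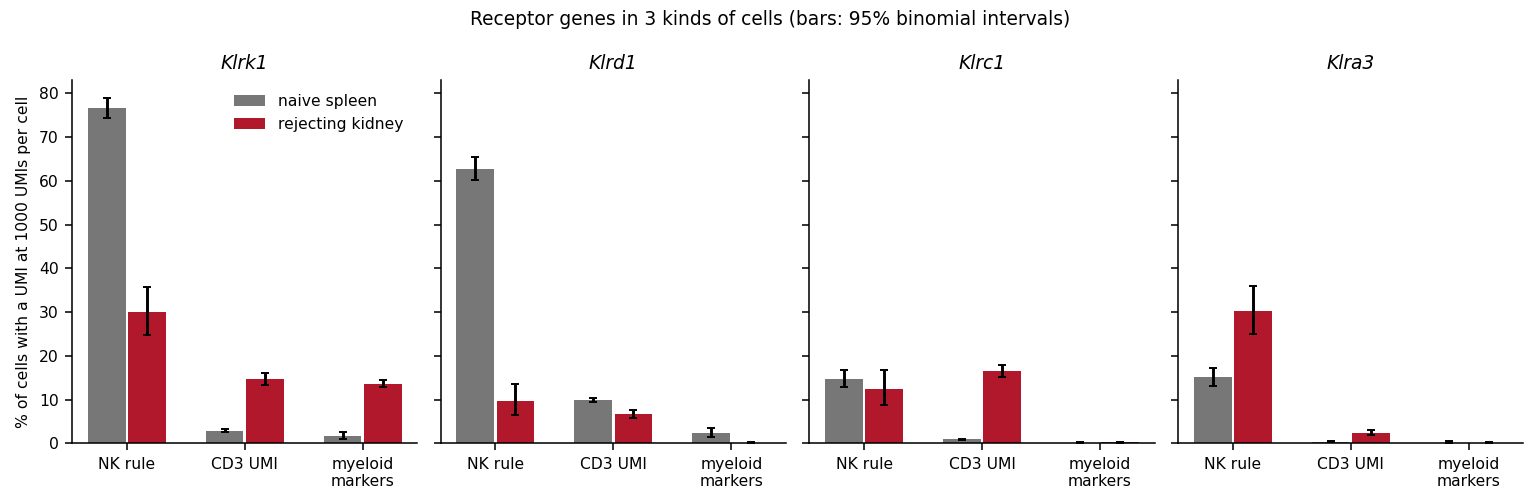
Share of cells with a UMI of 4 receptor genes in percent after thinning to 1000 UMIs, for cells that met the NK rule, cells with a CD3 UMI, and cells with myeloid markers. Bars are pooled cells of each matrix with 95% exact binomial intervals (counting error only), and of these genes Klrk1 alone exceeded 10% of the myeloid-marker cells in rejecting kidney.

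Across all CD8 matrices, the order of the mean Klrd1 level was labelled 24-week spleen (381 ± 31.7 CPM, SD, n = 3), 3-week kidney (314 ± 37.4, n = 5), 1-week kidney (209 ± 13.4, n = 3), naive spleen (189 ± 20.1, n = 5), 1-week spleen (155 ± 38.7, n = 3), labelled 24-week kidney (136 ± 11.9, n = 3), 3-week spleen (121 ± 20.3, n = 5), rejecting kidney (68.0 ± 34.2, n = 2), and rejecting spleen (33.2 ± 5.15, n = 3). The libraries of neighbors in this order overlapped from 1-week kidney down to 3-week spleen and did not between labelled 24-week spleen and 3-week kidney, between 3-week and 1-week kidney, between 3-week spleen and rejecting kidney, or between the rejecting tissues. For Klrk1 the order was rejecting kidney (162 ± 31.9 CPM, SD, n = 2), 1-week kidney (116 ± 3.88, n = 3), labelled 24-week spleen (79.9 ± 6.26, n = 3), 3-week kidney (68.9 ± 11.6, n = 5), labelled 24-week kidney (66.7 ± 18.7, n = 3), 1-week spleen (61.0 ± 10.3, n = 3), rejecting spleen (53.3 ± 5.18, n = 3), 3-week spleen (33.6 ± 7.23, n = 5), and naive spleen (17.3 ± 4.85, n = 5). Klrk1 libraries overlapped between neighbors from labelled 24-week spleen to rejecting spleen. Klrc1 fell into a high set, at 98.7 to 251 CPM in every library of accepted and rejecting kidney at 1 and 3 weeks and of the labelled 24-week spleen, and a low set, at 1.92 to 52.2 CPM in all other libraries.

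Over the 27 accepted and naive CD8 libraries, the genes whose log2(CPM + 1) was most like that of Klrc1 among 7233 genes were Bhlhe40 (Pearson r = 0.986), Eif4e3 (0.984), and Rgs1 (0.982). For Klrc2 these were Myo6 (0.976), Syngr2 (0.973), and Lrrk1 (0.967), and for Klrk1 Ppp6c (0.921), Dynlrb1 (0.911), and Arf4 (0.893). The nearest to Klri2 was Cd200r1 (0.95), to Klre1 Dusp1 (0.915), to Klra3 Sat1 (0.902), to Klrg1 Pigyl (0.847), and to Klrb1c Cd74 (0.923), which encodes the invariant chain of MHC class II, and the MHC class II gene H2-Aa (0.912). These values describe libraries that differ in tissue, time, cell makeup, and depth together.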

How the data were processed

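Viable CD45+ cells were profiled with a droplet 3′ kit. The authors aligned reads with Cell Ranger (version not given in the sources used here) to mm10 (named in the submitters' processing notes) and deposited raw UMI counts per gene and cell, with a library tag in each barcode. The methods describe a filter on UMIs, genes, and mitochondrial content in Seurat, and which deposited matrices it reached is not given in the sources used here. From these counts, UMIs were summed per library tag and compared in R 4.3.3 with edgeR 4.0.16 (quasi-likelihood test, plain library totals, default filter on low counts, Benjamini-Hochberg adjustment over all genes listed in the matrices compared). The filter keeps a gene that is high in only 1 of the groups, and such a gene could hardly be called in the other direction. The SE was derived from the test's F statistic. TMM scaling, DESeq2 1.42.0, no filter, 1 fit over all CD8 groups, strict cells, a replicate block, other NK rules, and leaving out each library were alternatives. Shares of cells were computed after thinning each cell to 1000 UMIs, leaving out shallower cells (313, 53, and 97 in accepted spleen at 1, 3, and labelled 24 weeks, 1 in naive spleen, and 14 naive NK cells). Intervals (95% exact binomial) and limits of 3 counts cover counting error only. No doublet caller was run. On simulated data, 93% of 2-fold and 95% of 4-fold changes were recovered for accepted kidney at 3 against 1 week (11564 genes), and 18% and 63% for the difference between the models (12154 genes). The shares were 54% and 89% for rejecting against accepted kidney, 45% and 81% for the spleens, and 28% and 80% for NK cells. All genes and groups were simulated with the same fixed dispersion, which was not estimated from these libraries, so recovery in groups with a wider spread may be lower.

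The members, lists, and tests were chosen with earlier results of these data known. All members are named, and of each pathway list up to 3 called genes per direction with the largest change in 3 comparisons. Likeness used genes averaging 10 CPM or more. The likeness of Klrd1 is not reported here. Accepted and naive matrices list 17517 to 19497 genes and rejecting ones 32285. Any processing that differs with these lists cannot be told apart from rejection or strain.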

Additional observations from a re-analysis of the deposited data

Results flagged for a closer look

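In accepted spleen at 3 weeks, the first library stood apart from the other 4 in 2 of 36 pairs of member and group tested for an outlying library. It had the highest Klrd1 level, 156 CPM, and the lowest Klrc1 level, 13.7 CPM. Chance flags about 1 in 20 such groups.

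The difference between kidney and spleen in Klre1 was larger in the rejecting than in the accepted model by 5.01 on the log2 scale (SE 0.727, adjusted p = 0.00408 in edgeR), with 2 UMIs in rejecting spleen.

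In rejecting kidney, 13.6% of thinned cells with myeloid markers had a Klrk1 UMI, in a class of cells that no comparison between groups used.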

How the results depend on the processing

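The number of members called moved by over 1.5 times in these cases, and the cause was not tested. In strict cells it was 4 in place of 7 for 3-week against naive spleen and 3 in place of 5 for rejecting against accepted spleen. For rejecting against accepted kidney it was 4 in place of 7 with TMM scaling and with DESeq2. For the difference between the models it was 3 in place of 1 with DESeq2, without the filter on low counts, and in 1 fit over all groups.

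Leaving out 1 library gave 8 to 9 members for accepted kidney at 3 against 1 week, 6 to 7 for labelled 24 weeks against 3 weeks, 6 to 8, 8 to 9, and 7 to 8 for kidney against spleen at 1, 3, and labelled 24 weeks, 7 to 8 and 6 to 7 for spleen at 1 and 3 weeks against naive, 4 to 7 for rejecting against accepted kidney, 3 to 4 for spleen, 4 to 6 for rejecting kidney against spleen, 1 to 3 for the difference between the models, and 4 to 7 for NK cells.

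The sign changed for Klrk1 at labelled 24 against 3 weeks (0.36 with TMM scaling, 0.36 with DESeq2, and -0.22 to 0.16 without 1 library), and in strict cells for Klrb1c there (-0.99), for Klrb1c between labelled 24-week tissues (-0.64), and for Klrd1 in 1-week against naive spleen (0.21). Between rejecting and accepted kidney it changed for Klrk1 (-0.21 with TMM scaling and -0.23 with DESeq2) and Klrc2 (-0.0065 with DESeq2), and between the spleens for Klrc1 (-0.080 with TMM scaling and -0.040 with DESeq2). In the difference between the models it changed for Klri2 (-0.0050 with TMM scaling, -0.94 in strict cells, and -0.55 to 0.79 without 1 library), Klrg1 (-0.64 to 2.12 without 1 library), and Klrb1c (-3.66 to 2.67 without 1 library). Of the other fold changes, 1114 kept direction and side of the threshold, 38 newly passed, and 64 no longer passed.

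With the library number as a replicate block, 8, 8, 7, and 4 members were called for kidney against spleen at 1, 3, and labelled 24 weeks and in the rejecting model, against 8, 8, 7, and 5 without it. Same-numbered kidney and spleen libraries deviated with correlations of 0.0993 to 0.284, 0.0472 to 0.380, 0.0543 to 0.173, and -0.0297 to -0.0184, and differently numbered ones with -0.220 to 0.106, -0.236 to 0.115, -0.135 to 0.0510, and -0.0271 to 0.0297. The best partner had the same number for 5 of 6, 7 of 10, 6 of 6, and 0 of 5 libraries. As not every same-numbered pair at each time passed 0.1, the block was not used, and whether a number marks 1 recipient is not given in the sources used here. Of the 9 members, 6 were found in at least 1% of thinned 3-week kidney cells, 7 without thinning, 5 at 500 UMIs, and 6 in strict cells. Of the share values, 156 moved by over 1 SD and 87 did not. A limit of 3 counts over the group was 0.0561 CPM in 1-week kidney and 1.86 CPM in rejecting spleen.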
